A study of Mus musculus with 9 samples.

Results

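The 8 genes described here encode secreted or shed growth factors that stromal cells can offer to regenerating muscle. They were taken as a list by name from the 26214 genes with normalized values: Areg, Ereg, Hbegf and Nrg1 of the EGF type, Fgf2, Fgf7 and Fgf10 of the FGF family, and Hgf. Of these, 7 had a mean of at least 10 over the 8 libraries compared and entered the test across genes, as did 13601 genes in all, and Areg did not. Nrg1 passed only through injured FAPs, where it was highest.

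RNA was sequenced from adipose stromal cells (ASCs) of subcutaneous adipose tissue and from fibro-adipogenic progenitors (FAPs) of the quadriceps of C57Bl/6 mice (by the study's methods C57Bl/6 J, male and 8 to 12 weeks old), on day 1 after injection into the quadriceps. ASCs (3 libraries) and FAPs (2 libraries) came from mice injected with NaCl, the non-injured control, and injured FAPs (3 libraries) from mice injected with glycerol, which damages myofibers. Tissues were digested with enzymes, cells carrying CD31 or CD45 were removed with magnetic beads, and Sca-1+ cells were then taken. The study describes replicate libraries from pooled cells of 3 animals and calls its replicates biological, without saying whether each library had a pool of its own. Its methods describe 3 replicates per condition, whereas FAPs had 2 libraries here. The p-values measure the spread between these libraries. A single library of CD31+CD45+ cells of quadriceps after glycerol, at the same day and in the same strain, was made once and was left out of the tests. The 8 tested libraries held between 24052508 and 27481573 reads on genes and the CD31+CD45+ library 13091077, so that 3 reads were worth a normalized value between 2.29 and 4.71.

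The labelled cell types were compared with their markers. All 8 stromal markers (Pdgfra, Ly6a, Cd34, Thy1, Dpp4, Pi16, Dcn and Col1a1) were above the value of 3 reads in each of the 9 libraries, and Pdgfra lay between 10837 and 25268 in the 8 sorted stromal libraries against 119 in the CD31+CD45+ library. Ly6a (17672) and Cd34 (17085) were abundant in that library too, against 16542 and 10823 for Ly6a in FAPs and 10736 to 11933 for Cd34 in injured FAPs. From FAPs to injured FAPs, Pdgfra and Ly6a were higher and Thy1 overlapped. Cd34, Dpp4, Pi16, Dcn and Col1a1 were lower, with Col1a1 means of 816596 and 270974. The 9 endothelial markers summed to between 1593 and 6979 in the stromal libraries, with Tek or Cdh5 the most abundant, and to 302297 in the CD31+CD45+ library. In ASCs Tek alone, between 4841 and 6700, made up most of the sum. Vwf, Emcn and Cldn5 were at 0 in both FAP libraries, whereas Cdh5, Kdr, Flt1 and Esam were higher there than in the other stromal libraries. Flt1 was at 1260 and 953 in FAPs, between 32.6 and 92.2 in ASCs and between 321 and 356 in injured FAPs. The 11 leukocyte markers summed to between 292 and 579 in 7 stromal libraries and to 2481 in injured FAP replicate 2, where Lyz2 led with 725, against 29522 in the CD31+CD45+ library. In both FAP libraries 7 of the 11, Ptprc among them, were at 0. The 5 smooth muscle and pericyte markers separated the groups: they summed to 18544 and 16164 in FAPs, led by Rgs5 or Acta2, to between 7759.9 and 8229 in injured FAPs, led by Cspg4, and to between 498 and 969.6 in ASCs. The 5 satellite cell markers summed to between 1081 and 4453, mostly through Vcam1, and the 5 fibre markers to between 662 and 814 in FAPs and between 106 and 238 elsewhere in the stromal libraries. Pax7 was at 31.4 and 65.9 in FAPs, between 5.34 and 11.8 in injured FAPs and at 0 in ASCs. Myf5 and Cdh15 were also highest on average in FAPs, and Vcam1 and Myod1 in injured FAPs. Schwann cell (4), mesothelial (4) and adipocyte (4) markers summed in the stromal libraries to at most 1204, 58.0 and 113. The part of these cells in the values below was not tested, and in bulk RNA fewer cells of a type and less RNA per cell cannot be told apart.

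EGF-type ligands are made as membrane proteins, are released by metalloproteases and act on the ERBB receptors of neighbouring cells. FGFs bind receptor tyrosine kinases together with heparan sulfate, with Fgf7 and Fgf10 acting mainly on an epithelial splice form of Fgfr2. HGF is stored in the matrix as an inactive chain, is cleaved by serine proteases and acts on Met. In muscle, HGF and FGF2 are known as factors that rouse quiescent satellite cells.

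Promoter sequences from RefSeq (GRCm38.p6, the build of mm10) were found for Areg, Fgf2, Fgf7 and Fgf10 (1 window each) and Hgf (2 windows). The promoter sequences used held no window for Ereg, Hbegf or Nrg1. Each window, 250 bases before to 50 after a start site, was searched on both strands for the AP-1 motif TGANTCA, the cyclic AMP response element (CRE) TGACGTCA and the TEAD motif GGAATG. Of 32851 windows of that length, 7.81% held the AP-1 motif, 1.79% the CRE and 14.7% the TEAD motif. The Areg window held 1 CRE, from 61 to 54 bases before the start site, overlapping no other match, and the other windows held none of the 3 motifs. Below are the 250 bases before the start site of Areg, shown for its CRE, and of Fgf7 and Fgf10, shown because these ligands share a receptor and differed in injured FAPs. All 3 are on the plus strand and outside annotated exons: Areg at chr5:91139349-91139598, Fgf7 at chr2:126034408-126034657 and Fgf10 at chr13:118714449-118714698, the last inside the annotated span of the gene. Capitals mark the CRE. A match is a description of letters, and binding was not measured.
Areg: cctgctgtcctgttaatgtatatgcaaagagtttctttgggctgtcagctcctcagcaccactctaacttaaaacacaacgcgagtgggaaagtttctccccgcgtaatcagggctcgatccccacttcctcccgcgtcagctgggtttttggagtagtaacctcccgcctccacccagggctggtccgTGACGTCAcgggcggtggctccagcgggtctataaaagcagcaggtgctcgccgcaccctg
Fgf7: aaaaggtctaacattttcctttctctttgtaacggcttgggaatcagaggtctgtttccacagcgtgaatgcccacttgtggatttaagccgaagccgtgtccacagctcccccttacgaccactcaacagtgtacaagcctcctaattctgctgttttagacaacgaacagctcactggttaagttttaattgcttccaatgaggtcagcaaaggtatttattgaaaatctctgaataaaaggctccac
Fgf10: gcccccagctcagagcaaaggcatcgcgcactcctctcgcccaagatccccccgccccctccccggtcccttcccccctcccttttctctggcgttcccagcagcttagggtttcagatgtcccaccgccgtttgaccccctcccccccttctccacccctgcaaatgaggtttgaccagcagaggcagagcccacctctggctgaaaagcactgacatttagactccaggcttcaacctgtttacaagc

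Ereg (chr5:91074622-91093646, plus strand) encodes epiregulin, a ligand of EGFR. Its normalized values were 47.4, 39.6 and 30.1 in the 3 ASC libraries, 0.951 and 4.70 in the 2 FAP libraries, and 195, 182 and 214 in the 3 injured FAP libraries. The groups did not overlap: injured FAPs were high, ASCs were intermediate, and the FAP libraries held 6 reads in all. From recovered reads, the ratio of injured FAPs to FAPs was 69.5, with a 95% counting interval from 31.8 to 189.9, and that of ASCs to FAPs was 13.7 (6.08 to 38.4). These intervals cover counting error only. On the log2(value + 1) scale, which understates changes of low genes, Ereg was higher in injured FAPs than in FAPs by 5.89 (SE 0.42, limma adjusted p = 1.66e-06) and higher in ASCs than in FAPs by 3.56 (SE 0.42, limma adjusted p = 4.87e-05). Both comparisons share the FAP libraries. Without FAP replicate 2 these differences were 6.66 and 4.34, and without FAP replicate 1 they were 5.11 and 2.79. With a pseudocount of 8 they were 4.26 and 2.13. Injured FAPs exceeded ASCs by 2.33 (SE 0.37, limma adjusted p = 2.96e-04). The CD31+CD45+ library had an Ereg value of 3.14.

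Areg (chr5:91139599-91148432, plus strand), the gene of amphiregulin, lies 46.0 kb from Ereg in a row of EGF-type genes with Epgn and Btc. Its normalized values were 47.4, 1.13 and 8.79 in ASCs, 3.80 and 0 in FAPs, 1.57, 6.97 and 2.29 in injured FAPs, and 9.42 in the CD31+CD45+ library. Replicate 1 of the ASCs stood apart, and all 3 groups overlapped. The recovered reads behind these values were 44 in ASCs, 4 in FAPs and 14 in injured FAPs. Without the filter on low values, no comparison was called (limma adjusted p = 0.166, 0.572 and 0.355). Leaving out ASC replicate 2 raised the mean of Areg past the filter, only through ASCs and mostly through replicate 1 (47.4), and ASCs were then higher than FAPs by 3.31 (limma adjusted p = 0.0198) and injured FAPs lower than ASCs, at -2.42 (limma adjusted p = 0.0461). Areg also passed the filter without FAP replicate 2 (ASCs against FAPs 1.06, limma adjusted p = 0.583) and without injured FAP replicate 1 (2.2, limma adjusted p = 0.165), and was called in no comparison of those fits.

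Epithelial markers were uneven across the same ASC libraries. The 6 markers (Epcam, Cdh1, Krt8, Krt18, Krt5 and Krt14) summed to 1067, 1.13 and 314 in ASC replicates 1 to 3, with Krt8 at 483, 0 and 137 and Epcam at 88.3, 0 and 21.3. Krt5 and Krt14 were at 0 in replicate 1. In FAPs the sum was 1.90 and 1.88, in injured FAPs at most 8.63, and in the CD31+CD45+ library 149. The 3 ASC libraries thus had the same order for Areg and for these markers. Hbegf (1101, 608 and 962) and Fgf2 (408, 272 and 328) had this order among the ASC libraries as well, and the other 5 growth factors did not, with Ereg at 39.6 in the library whose epithelial sum was 1.13. The order was not particular to epithelial markers. Sums of stromal, fibre, mesothelial (21.1, 9.06 and 15.1) and adipocyte markers (113, 96.3 and 109) had it too. Sums of endothelial, leukocyte, satellite cell, smooth muscle and pericyte, and Schwann cell markers did not. The part of epithelial cells in the values of Areg, Hbegf and Fgf2 was not tested.

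**Figure D1:**
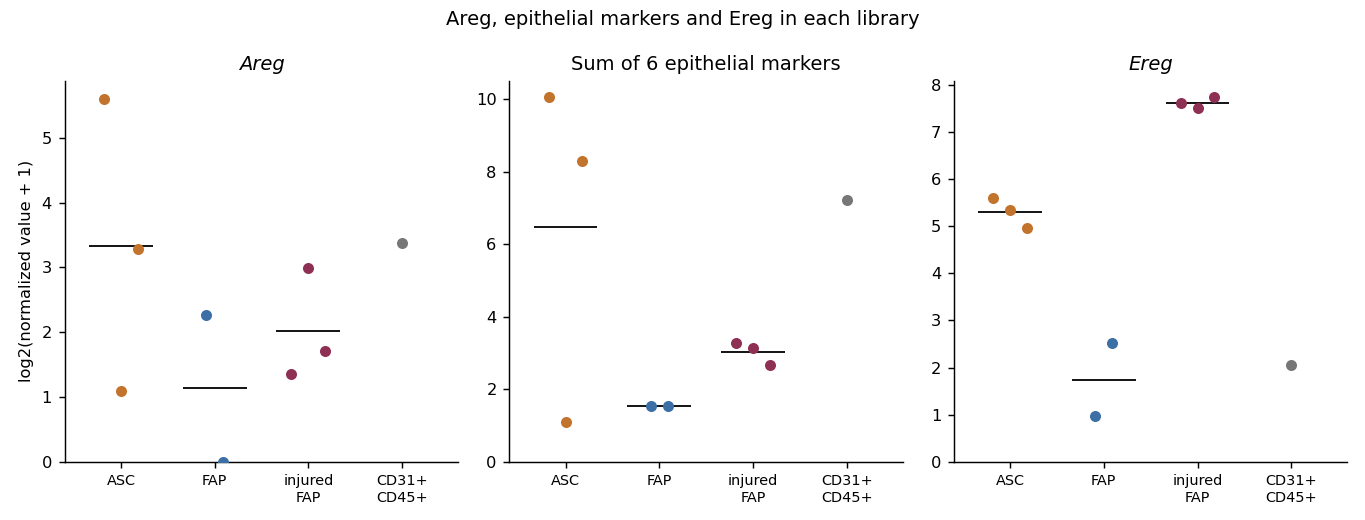
Normalized values of Areg, the sum of the 6 epithelial markers and Ereg in each library, as log2(value + 1) on the vertical axis, with groups along the horizontal axis, a point per library and a bar at the mean of the log2 values. ASC replicate 1 is the highest point for Areg (47.4) and for the markers (1067), while the 3 injured FAP libraries are highest for Ereg (182 to 214).

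Hbegf (chr18:36504927-36515805, minus strand) encodes heparin-binding EGF-like growth factor, which binds heparan sulfate as well as EGFR. Its normalized values were 1101, 608 and 962 in ASCs, 553 and 592 in FAPs, and 1468, 1166 and 1285 in injured FAPs. The groups did not overlap, although ASC replicate 2, the library with the lowest epithelial sum among ASCs, came close to the FAPs. Injured FAPs exceeded FAPs by 1.18 (SE 0.22, limma adjusted p = 7.54e-04), and this call was kept under each alternative tried. The other differences lay close to the log2 threshold of 0.58: ASCs exceeded FAPs by 0.59 (SE 0.22, limma adjusted p = 0.0350), and injured FAPs exceeded ASCs by 0.59 (SE 0.19, limma adjusted p = 0.0199). The call of ASCs against FAPs was lost under 10 of 19 alternatives, among them those without ASC replicate 1 (0.42), ASC replicate 3 (0.52), FAP replicate 1 (0.54), FAP replicate 2 (0.64, limma adjusted p = 0.0996) or injured FAP replicate 3 (0.59, limma adjusted p = 0.0543), scaling to a common 75th percentile (0.43), quantile normalization (0.48), no filter on low values (limma adjusted p = 0.0519) and a fit of only the 2 groups compared (limma adjusted p = 0.0742). The call against ASCs was lost without ASC replicate 2 (0.34), injured FAP replicate 1 (0.50) or injured FAP replicate 3 (0.60, limma adjusted p = 0.0512), and with DESeq2 (0.56).

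Nrg1 (chr8:31814551-32884029, minus strand) encodes neuregulin 1, a ligand of ERBB3 and ERBB4. Normalized values were 9.22, 4.53 and 2.51 in ASCs, 3.80 and 0.941 in FAPs, 16.5, 31.8 and 19.1 in injured FAPs, and 0 in the CD31+CD45+ library. Injured FAPs lay above both other groups, which overlapped each other. Recovered reads were 13, 5 and 87 in the 3 groups, and the ratio of injured FAPs to FAPs was 9.49, with a 95% counting interval from 3.92 to 30.0. The difference from FAPs was 2.89 on the log2 scale (SE 0.64, limma adjusted p = 0.00249) and that from ASCs 1.95 (SE 0.57, limma adjusted p = 0.0114). Without FAP replicate 2 the first was 2.23 and without FAP replicate 1 it was 3.54, and with a pseudocount of 8 it was 1.53. Nrg1 passed the filter on low values only through the group in which it was then called higher: without injured FAP replicate 2 or 3 it fell below the filter and was not tested, and with no filter both calls were made (limma adjusted p = 0.00312 and 0.0128). ASCs and FAPs differed by 0.93 with a 95% interval from -0.48 to 2.35, which was not called.

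Of Fgf2, Fgf7 and Fgf10, the last (chr13:118669791-118792115, plus strand) had the widest range. This ligand of the epithelial form of Fgfr2 is known for its role in branching organs and in fat cell precursors. Its normalized values were 345, 420.2 and 463 in ASCs, 78.9 and 92.2 in FAPs, and 13.3, 14.7 and 14.5 in injured FAPs, with 1.57 in the CD31+CD45+ library. The groups were far apart, with ASCs high, FAPs between and injured FAPs low. The ASC mean was 4.79 times the FAP mean, and the FAP mean was 6.03 times that of injured FAPs. ASCs exceeded FAPs by 2.24 on the log2 scale (SE 0.21, limma adjusted p = 9.80e-06), while injured FAPs were lower than FAPs, at -2.51 (SE 0.21, limma adjusted p = 4.16e-06), and lower than ASCs, at -4.75 (SE 0.19, limma adjusted p = 2.93e-08). All 3 calls were kept under each alternative tried.

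Fgf7 (chr2:126034658-126091185, plus strand), or keratinocyte growth factor, acts on the same receptor form and did not share this pattern. In ASCs its normalized values were 1582, 1424 and 1657, against 1041 and 858 in FAPs, and 1016, 1089 and 1008 in injured FAPs. ASCs were above both FAP groups, which overlapped. Injured FAPs differed from FAPs by 0.13, with a 95% interval from -0.13 to 0.39 (limma adjusted p = 0.331), so that a fall of the size seen for Fgf10 lies outside the interval, and without FAP replicate 2 the difference was -0.0061. ASCs exceeded FAPs by 0.71 (SE 0.12, limma adjusted p = 4.41e-04), and injured FAPs were lower than ASCs, at -0.58 (SE 0.10, limma adjusted p = 6.17e-04), just past the fold threshold. The first call was lost without FAP replicate 2 (0.57), with quantile normalization (0.50) or with a common 75th percentile (0.55). The second was lost without ASC replicate 1 (-0.57), ASC replicate 3 (-0.53), injured FAP replicate 1 (-0.57) or injured FAP replicate 3 (-0.56), with a pseudocount of 8 (-0.58), quantile normalization (-0.47), a common 75th percentile (-0.46), edgeR (-0.49) or DESeq2 (-0.57). In each of these fits the direction was the same and the adjusted p stayed below 0.05, so that only the fold threshold was missed.

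Fgf2 (chr3:37348346-37410108, plus strand) encodes basic FGF, which leaves cells without a signal peptide and binds heparan sulfate. Its normalized values were 408, 272 and 328 in ASCs, 103 and 112 in FAPs, 214, 218 and 224 in injured FAPs, and 6.28 in the CD31+CD45+ library. The groups did not overlap, with ASCs highest and FAPs lowest. ASCs exceeded FAPs by 1.62 (SE 0.18, limma adjusted p = 3.20e-05) and injured FAPs exceeded FAPs by 1.02 (SE 0.18, limma adjusted p = 5.84e-04). Injured FAPs were lower than ASCs, at -0.60 (SE 0.16, limma adjusted p = 0.00720), a call that was lost without ASC replicate 1 (-0.45), with a common 75th percentile (-0.48) or with edgeR (-0.53). The antisense gene Nudt6 shares 640 exon bases with Fgf2, or 9.44% of its exons, and the strand setting of the counting is not stated. Reads in that stretch cannot be assigned to a gene with certainty. Nudt6 values were 25.0, 65.7 and 59.0 in ASCs, 67.5 and 56.4 in FAPs, and 85.5, 72.8 and 67.1 in injured FAPs, below those of Fgf2 in each of these libraries and without its order of groups.

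Hgf (chr5:16553495-16620152, plus strand) had a pattern close to that of Fgf2. Hgf values, normalized, were 453, 369 and 358 in ASCs, 156 and 115 in FAPs, 273, 233 and 302 in injured FAPs, and 9.42 in the CD31+CD45+ library. ASCs were highest, FAPs lowest, and the groups did not overlap. ASCs exceeded FAPs by 1.54 (SE 0.19, limma adjusted p = 5.88e-05) and injured FAPs exceeded FAPs by 1.00 (SE 0.19, limma adjusted p = 8.69e-04), a difference that was 0.78 without FAP replicate 2 and 1.22 without FAP replicate 1. Injured FAPs were at -0.54 relative to ASCs (SE 0.17, limma adjusted p = 0.0143), short of the fold threshold. This became a call without ASC replicate 2 (-0.59), ASC replicate 3 (-0.61) or injured FAP replicate 3 (-0.63), and with quantile normalization (-0.67).

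**Figure D2:**
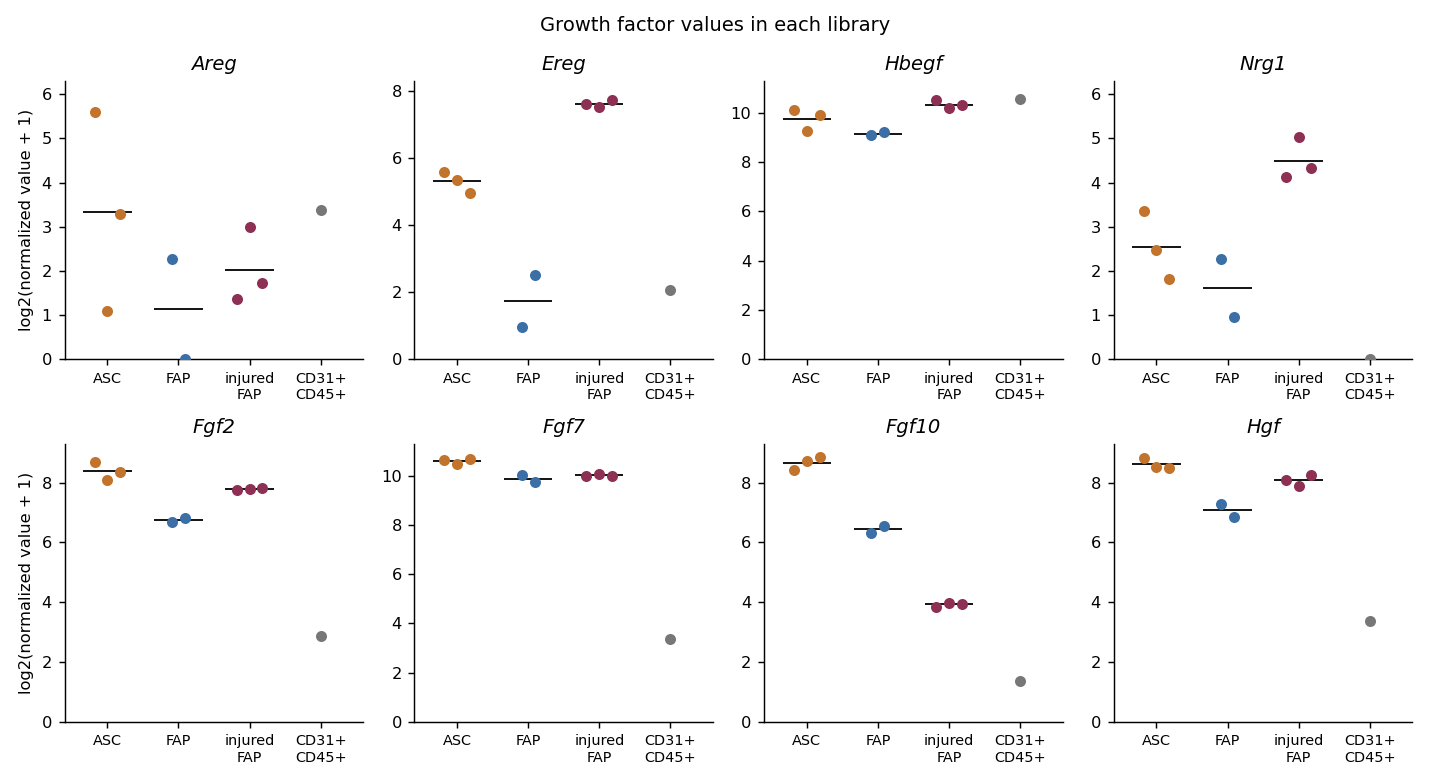
Normalized values of the 8 growth factors in each library, as log2(value + 1) on the vertical axis of each panel, with groups along the horizontal axis, a point per library and a bar at the mean of the log2 values. Ereg runs from 0.951 in a FAP library to 214 in an injured FAP library, while Fgf10 runs from 463 in ASCs down to 13.3 in injured FAPs.

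Counted together, 6 of the 7 tested growth factors were called higher in ASCs than in FAPs, where 23.4% of all tested genes were, and 0 lower, where 23.8% of all were. Their median log2 difference was 1.54 and that of all genes 0.00. The count higher was 4, without Hbegf and Fgf7, on scaling to a common 75th percentile, on quantile normalization and without FAP replicate 2. It was 5 with no filter, with only the 2 groups compared, with a replicate block and without ASC replicate 1, ASC replicate 3, FAP replicate 1 or injured FAP replicate 3. Without ASC replicate 2 it was 7 of 8 tested, among them Areg, which passed the filter there only through ASCs. No gene of the 7 tested in the main fit was lower at an unadjusted p under 0.05 either, or by edgeR or DESeq2 (0 each). In injured FAPs against FAPs, 5 were called higher (24.9% of all genes) and 1, Fgf10, lower (27.7% of all genes), with a median of 1.02 against -0.05, and 4 were higher with a filter at a mean of 50 or without injured FAP replicate 2 or 3, where Nrg1 was not tested. In injured FAPs against ASCs, 3 were called higher (25.0% of all genes) and 3 lower (25.8% of all genes), with a median of -0.54 against 0.02. Among the 8, the 3 higher were the tested EGF-type ligands and the 3 lower the FGFs. Of these, Nrg1 passed the filter only through injured FAPs. The other tested ligands, described below, did not divide by family in this way. Of their EGF-type ligands 1 was higher and 2 lower, and of their FGFs 2 were higher and 6 lower. For the 8 growth factors, the lower count fell to 1, Fgf10, without ASC replicate 1, with a common 75th percentile or with edgeR. It rose to 5 without ASC replicate 2. Those 5 were Areg, Fgf10, Fgf2, Fgf7 and Hgf, with Areg past the filter there only through ASCs. The higher count fell to 1, Ereg, without injured FAP replicate 3. Under the other alternatives each of the 2 counts was 2 or 3. The libraries of each group enter 2 of the 3 comparisons, which therefore share samples. A common 75th percentile moved the median of all genes to -0.16, -0.10 and 0.14 in the 3 comparisons.

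**Figure D3:**
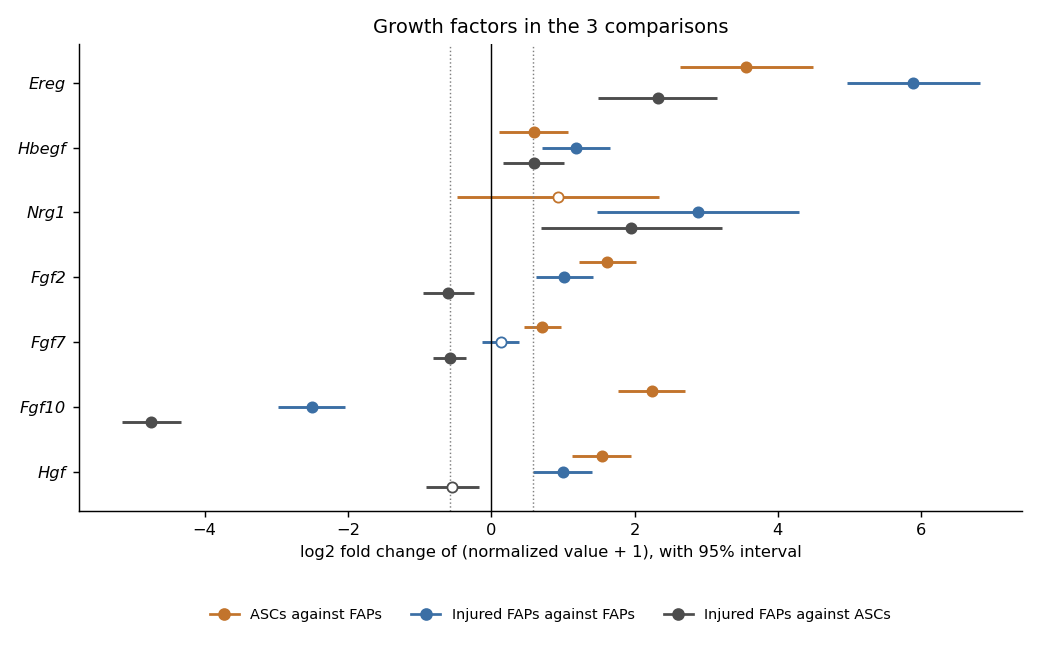
Log2 fold changes on the log2(value + 1) scale (horizontal axis) of the 7 tested growth factors (vertical axis) in the 3 comparisons, with 95% intervals from limma. Filled points were called, open points were not, and dotted lines mark 0.58 in either direction. Ereg lies farthest to the right in injured FAPs against FAPs (5.89) and Fgf10 farthest to the left in injured FAPs against ASCs (-4.75).

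Levels of different genes were compared per kilobase of annotated exon. On that scale Fgf7 was the highest of the 8 in ASCs (479 ± 36.7 per kb, SD, n = 3), in FAPs (292 ± 39.9, n = 2) and in injured FAPs (319 ± 13.8, n = 3). Hbegf came next per kb in each group, at 184 ± 52.6, 118 ± 5.61 and 270.2 ± 31.5. In ASCs the next levels per kb were Fgf10 (89.0 ± 13.0), Hgf (54.7 ± 7.25) and Fgf2 (49.5 ± 10.1), the latter pair overlapping. Areg (15.7 ± 20.4) and Ereg (9.46 ± 2.10) overlapped per kb in ASCs, with Areg at 39.0 in replicate 1 and below Ereg in replicates 2 and 3, and Nrg1 was last (0.524 ± 0.333 per kb). In FAPs, Hgf (18.8 ± 4.05 per kb) overlapped both Fgf10 (18.6 ± 2.04) and Fgf2 (15.8 ± 0.965), which did not overlap each other. In injured FAPs, Ereg (47.7 ± 3.82 per kb) followed Hbegf, ahead of Hgf (37.5 ± 4.80) and Fgf2 (32.3 ± 0.75), whose ranges overlapped, and Fgf10, Areg and Nrg1 were last, between 2.17 and 3.08 per kb. With the longest transcript as the length, Hbegf (452 per kb) stood above Fgf7 (388) and Hgf (77.7) above Ereg (47.7) in injured FAPs, Hgf (113) above Fgf10 (99.5) in ASCs, and Hgf (39.0) above Fgf10 (20.8) and Fgf2 (18.0) in FAPs.

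**Figure D4:**
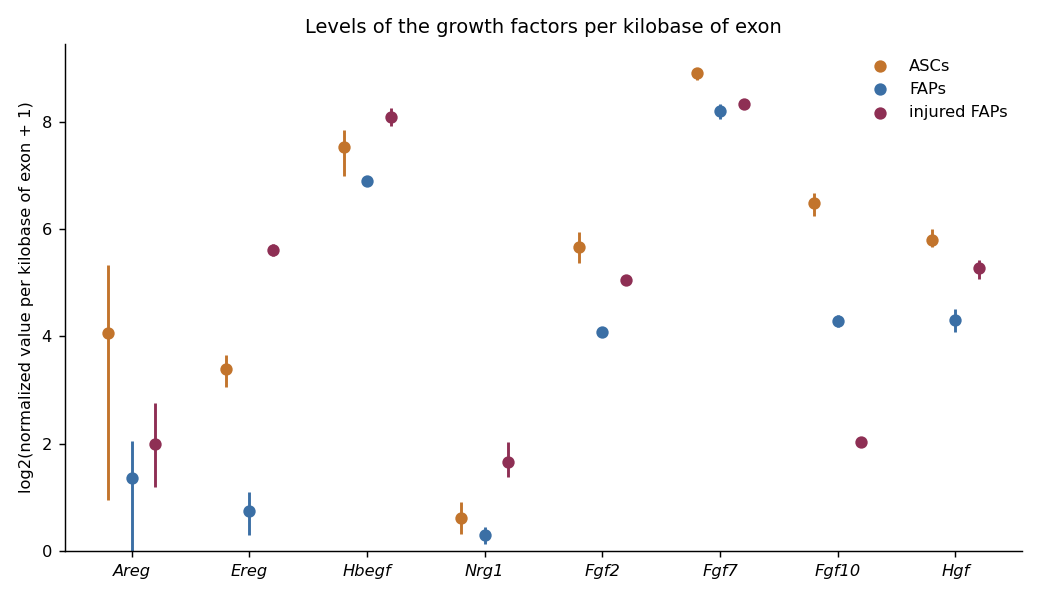
Levels per kilobase of exon as log2(value + 1) on the vertical axis for the 8 growth factors along the horizontal axis. Points are group means and lines run from the lowest to the highest library of ASCs (3), FAPs (2) and injured FAPs (3). Fgf7 is highest in each group, and Ereg lies at 0.685 per kb in FAPs and 47.7 in injured FAPs.

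Among genes with a mean of at least 100, those whose centred profiles over the 8 libraries came closest to each tested member were found by the root mean square difference of log2(value + 1). For Ereg they were Dtl (0.34) and Mcm10 (0.53), genes of DNA replication. For Fgf10 they were Wnt10b (0.19), a WNT ligand, and Irf4 (0.23), a transcription factor. Hbegf was closest to Soat1 (0.15) and Hhipl1 (0.16), Nrg1 to Wdr12 (0.47) and Zfp367 (0.48), Fgf2 to Tra2b (0.07) and Atp8b1 (0.08), Fgf7 to Atg7 (0.05) and Fndc3b (0.06), and Hgf to Apaf1 (0.12) and Tor1aip2 (0.13).

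Of 27 other listed ligands of the same families, 12 were tested. In injured FAPs against FAPs 1 was called higher (24.9% of all genes) and 9 lower (27.7% of all genes), and over the alternatives 1 to 2 were higher and 6 to 9 lower. The difference from the counts of the 8 growth factors was not tested. Fgf23, a hormone of phosphate balance, was the 1 called higher, and with quantile normalization Btc was as well (1.02): Fgf23's normalized values were 933, 712 and 255 in ASCs, 5.71 and 2.82 in FAPs and 61.2, 41.1 and 50.3 in injured FAPs, and it was higher in injured FAPs than in FAPs by 3.34 (SE 0.49, limma adjusted p = 1.72e-04). Fgf1, which like Fgf2 lacks a signal peptide, had the opposite order to Fgf2, with 133, 99.7 and 132 in ASCs, 1497 and 2027 in FAPs and 237, 222 and 236 in injured FAPs, a change of -2.90 (SE 0.18, limma adjusted p = 7.58e-07). Nrg2 fell from 152 and 161 in FAPs to between 10.8 and 16.5 in injured FAPs, a change of -3.39 (SE 0.70, limma adjusted p = 0.00170), whereas Nrg1 rose. Nrg2 passed the filter on low values only through FAPs, Fgf12 only through ASCs, and Fgf13 only through ASCs and FAPs together. Fgf16 (-2.39), Fgf11 (-2.46), Fgf9 (-2.41), Fgf13 (-1.57), Fgf12 (-1.52), Tgfa (-1.40) and Fgf18 (-0.77) were also lower in injured FAPs than in FAPs. Calls of 3 of these depended on a library: that of Tgfa was lost without FAP replicate 1 (-1.18) and with quantile normalization (-0.92), that of Fgf13 without injured FAP replicate 1 (-1.55) or 2 (-1.44), and that of Fgf12 without FAP replicate 1 (-1.70) or 2 (-1.33) or injured FAP replicate 1 (-1.43) or 3 (-1.22). Fgf13 fell below the filter without ASC replicate 1 or 2 or FAP replicate 1, and with a replicate block neither Fgf12 (-1.34) nor Fgf13 (-1.44) was called. Per kb, Fgf18 was above each member in all 3 groups, at 986 in ASCs, 963 in FAPs and 564 in injured FAPs.

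In ASCs against FAPs 4 of the other ligands were called higher (23.4% of all genes) and 4 lower (23.8% of all genes), with 3 to 5 higher and 3 to 4 lower over the alternatives. Tgfa, a ligand of EGFR like Ereg, Areg and Hbegf, had values of 169.9, 213 and 187 in ASCs and 36.1 and 26.3 in FAPs, and was higher in ASCs by 2.58 (SE 0.36, limma adjusted p = 1.60e-04). Btc, the neighbour of Areg, was higher by 1.59, Fgf23 by 6.77 and Fgf21 by 2.26, the last call being lost without FAP replicate 2 (1.96). Nrg2 (-5.76), Fgf1 (-3.84), Fgf16 (-3.06) and Fgf11 (-1.07) were lower. Fgf21 passed the filter only through ASCs and Nrg2 only through FAPs. In injured FAPs against ASCs 3 were higher (25.0% of all genes), Nrg2 (2.36), Fgf1 (0.94) and Fgf16 (0.67), and 8 lower (25.8% of all genes), among them Tgfa (-3.97) and Fgf9 (-2.00), with 2 to 4 higher and 6 to 9 lower over the alternatives. The call of Fgf16 was lost without ASC replicate 3 (0.49), injured FAP replicate 2 (0.65) or injured FAP replicate 3 (0.67), with a pseudocount of 8 (0.56) and with quantile normalization (0.54). Fgf13, not called there (-1.09), was called without ASC replicate 3 (-1.48), with quantile normalization (-1.46), with edgeR (-1.22) and at an unadjusted p. Fgf12 in ASCs against FAPs (1.24, not called) was called without injured FAP replicate 2 (1.24), with a pseudocount of 8 (0.87), quantile normalization (1.68), edgeR (1.26) or only the 2 groups compared, and at an unadjusted p.

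Of 13 listed receptor genes, 11 were tested, and in injured FAPs against FAPs limma called 0 higher, as did edgeR, DESeq2 and an unadjusted p under 0.05 (0 each), and 4 lower (27.7% of all genes), or 2 lower without FAP replicate 2 or injured FAP replicate 2. In ASCs against FAPs 5 were higher (23.4% of all genes) and 3 lower (23.8%), and in injured FAPs against ASCs 2 were higher (25.0% of all genes), or 1 without injured FAP replicate 2 or 3, 3 without ASC replicate 2 or 3 and 0 with a filter at a mean of 50, and 6 lower (25.8%). Over all alternatives the receptors called in ASCs against FAPs ran from 4 to 6 higher and 1 to 4 lower, in injured FAPs against FAPs from 0 to 1 and 2 to 5, and in injured FAPs against ASCs from 0 to 3 and 5 to 6. Fgfr3 became a call in injured FAPs against FAPs, upward, with quantile normalization (1.17) or without FAP replicate 2 (1.70). Egfr, the receptor of Ereg, Areg and Hbegf, had normalized values of 35498, 31543 and 39601 in ASCs, 6625 and 6265 in FAPs, and 6395, 6542 and 6137 in injured FAPs. It was higher in ASCs than in FAPs by 2.46 (SE 0.11, limma adjusted p = 1.30e-07), and injured FAPs and FAPs differed by -0.02 with a 95% interval from -0.27 to 0.23, while Ereg and Hbegf rose. Erbb4, one of the receptors of Nrg1, was at 0 in all 9 libraries, and Erbb3, the other, lay between 21.2 and 86.9 in the 8 tested libraries. Erbb3 was lower in injured FAPs than in ASCs, at -1.54 (SE 0.30, limma adjusted p = 0.00120). Erbb2, the partner of the other ERBB receptors, was lower in ASCs than in FAPs, at -0.97 (SE 0.21, limma adjusted p = 0.00251). Erbb3 became a call with quantile normalization (limma adjusted p = 0.00440), at an unadjusted p or without FAP replicate 2 (1.30), each for ASCs against FAPs, or without FAP replicate 1 (-1.26, injured FAPs against FAPs), and Erbb2 without ASC replicate 2 (0.61, injured FAPs against ASCs). For injured FAPs against FAPs Erbb2 was called with quantile normalization (-0.68) and a common 75th percentile (-0.60).

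Fgfr2, the receptor gene of Fgf7 and Fgf10, had values of 579.6, 480.2 and 849.9 in ASCs, 213 and 280.4 in FAPs and 181, 144 and 137 in injured FAPs, the same order of groups as Fgf10. It was higher in ASCs than in FAPs by 1.3 (95% interval 0.81 to 1.87, limma adjusted p = 7.84e-04). The change in injured FAPs from FAPs, -0.67 (SE 0.24, limma adjusted p = 0.0296), was lost without FAP replicate 2 (-0.47), injured FAP replicate 2 (-0.63) or injured FAP replicate 3 (-0.59). Splice forms are not separated by values per gene. Fgfr1 was the highest FGF receptor per kb in each group, at 4222 in ASCs, 1581 in FAPs and 1276 in injured FAPs, with ASC replicate 1 at 65164 against 27242 and 32659.8 in the other ASC libraries before division by length. It was higher in ASCs than in FAPs by 1.31 (SE 0.29, limma adjusted p = 0.00278), a call lost with quantile normalization (0.45). Fgfr4 (-4.62) and the co-receptor Kl (-2.41) were lower in ASCs than in FAPs, Fgfr3 was not called there (-0.43) except without FAP replicate 1 (-1.31), and the decoy receptor Fgfrl1 was called in no comparison. Fgfr4 and Kl passed the filter on low values only through FAPs. They were also lower in injured FAPs than in FAPs, at -2.54 and -1.52, calls lost for Fgfr4 without FAP replicate 2 (-1.93) and for Kl without FAP replicate 1 (-1.26) or injured FAP replicate 2 (-1.29) and with quantile normalization (-1.08). Against ASCs, injured FAPs were higher for Fgfr4 (2.08) and for Fgfr3 (1.23), the latter call being lost without injured FAP replicate 2 or 3 (both 1.16). Kl was called there only without ASC replicate 3 (1.24).

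Met, the receptor of Hgf, shared the order of groups of its ligand. Its values were 736, 484 and 507 in ASCs, 208 and 201 in FAPs and 288, 291 and 265 in injured FAPs. ASCs exceeded FAPs by 1.46 (SE 0.18, limma adjusted p = 6.65e-05), whereas injured FAPs exceeded FAPs by 0.46 (SE 0.18, limma adjusted p = 0.0442), short of the fold threshold. Mst1r, the related receptor of macrophage stimulating protein, was higher in ASCs than in FAPs by 0.76 and lower in injured FAPs than in FAPs, at -1.65 (SE 0.11, limma adjusted p = 1.02e-06). With quantile normalization the first of these calls was lost (0.50).

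**Figure D5:**
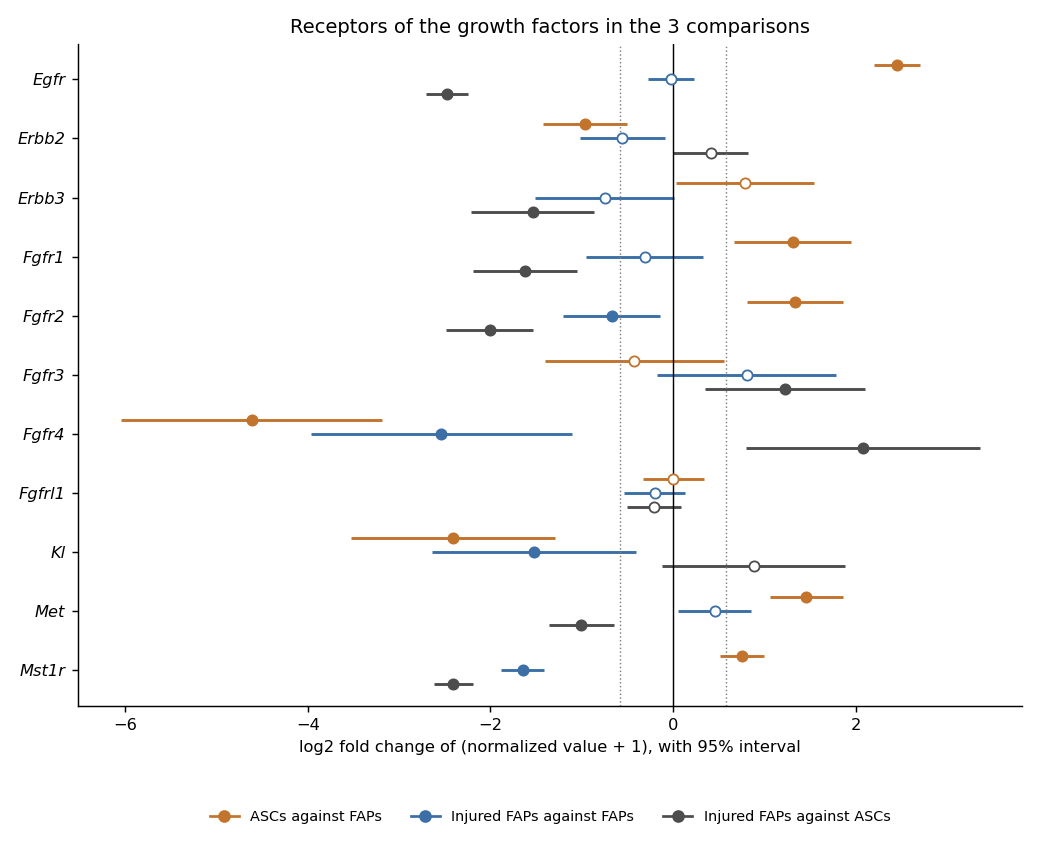
Log2 fold changes on the log2(value + 1) scale (horizontal axis) of the 11 tested receptor genes (vertical axis) in the 3 comparisons, with 95% intervals from limma. Filled points were called, open points were not, and dotted lines mark 0.58 in either direction. For injured FAPs against FAPs Egfr lies at -0.02, and Fgfr4 at -2.54.

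Genes that release or activate the ligands moved both ways in injured FAPs against FAPs: of 12 listed, 9 were tested, and 4 were called higher (24.9% of all genes) and 3 lower (27.7% of all genes). Adam12, a metalloprotease known to shed HB-EGF, had normalized values of 481 and 278 in FAPs, 2297, 3198 and 3318 in ASCs and 13167, 13169 and 12643 in injured FAPs, the same order of groups as Ereg and Hbegf. It was higher in injured FAPs than in FAPs by 5.15 (SE 0.22, limma adjusted p = 1.99e-07) and higher in ASCs than in FAPs by 2.98 (SE 0.22, limma adjusted p = 1.93e-06). Plau, the urokinase that can cleave pro-HGF, was higher in injured FAPs than in FAPs by 2.01 (SE 0.16, limma adjusted p = 3.34e-06) and in ASCs than in FAPs by 1.47. Rhbdf2 and Rhbdf1, which bring the shedding protease ADAM17 to the cell surface, were lower in injured FAPs than in FAPs, at -1.45 and -0.91. In ASCs against FAPs 4 of the 9 were higher (23.4% of all genes), 1 of them a gene that passed the filter only through ASCs, and 1, Rhbdf2 (-2.73), lower (23.8% of all genes), or 2 lower without ASC replicate 2, ASC replicate 3 or FAP replicate 1, with quantile normalization or with a common 75th percentile. Injured FAPs were higher than ASCs for 2 (25.0% of all genes), Adam12 (2.16) and Rhbdf2 (1.28), or for 4 with quantile normalization or a common 75th percentile and 3 with edgeR or without ASC replicate 1 or injured FAP replicate 2. They were lower for 1 (25.8% of all genes), or for 2 without ASC replicate 2, with quantile normalization, edgeR, DESeq2, no filter or an unadjusted p, and for 0 without ASC replicate 3 or with a filter at a mean of 50. The alternatives together gave release genes called in ASCs against FAPs from 3 to 5 higher and 1 to 2 lower, and in injured FAPs against FAPs from 4 to 5 and 2 to 4.

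Heparan sulfate holds FGFs, HGF and HB-EGF at the cell surface, and its genes did not move one way. Of 22 listed genes of heparan sulfate and FGF binding, 21 were tested. In ASCs against FAPs 9 were higher and 4 lower (23.4% and 23.8% of all genes), or 3 and 6 with quantile normalization, in injured FAPs against FAPs 6 were higher and 5 lower (24.9% and 27.7% of all genes), and in injured FAPs against ASCs 5 were higher and 6 lower (25.0% and 25.8% of all genes). In both of the latter comparisons 1 of the genes called higher passed the filter only through injured FAPs. Under the alternatives the 3 comparisons ran from 3 to 9 higher and 3 to 6 lower, from 5 to 7 and 4 to 7, and from 5 to 7 with 6 lower throughout. Hs3st1, a sulfotransferase, had normalized values of 1431, 1167 and 1168 in ASCs, 217 and 212 in FAPs and 31.4, 36.4 and 18.3 in injured FAPs, the order seen for Fgf10, and injured FAPs were lower than FAPs, at -2.91 (SE 0.25, limma adjusted p = 5.60e-06). Among core proteins, Sdc1 was higher in injured FAPs than in FAPs by 1.26, and Gpc3 (-1.82) and Gpc6 (-1.47) were lower. Sdc3 and Gpc1 were lower in ASCs than in FAPs, at -3.41 and -1.82, and Hpse, which cuts heparan sulfate, was higher by 2.78.

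Of 9 tested adaptor genes downstream of the receptors, 0 were higher and 2 lower in ASCs against FAPs (23.4% and 23.8% of all genes), with 1 higher without ASC replicate 2 or FAP replicate 1 and 1 lower without FAP replicate 1 or 2. There were 1 higher and 3 lower in injured FAPs against FAPs (24.9% and 27.7% of all genes), with Gab2 at -1.23 and Gab1 at -0.99, and 0 higher and 1 lower in injured FAPs against ASCs by limma (25.0% and 25.8% of all genes), with 1 higher without ASC replicate 2 or 3 or with a common 75th percentile and 2 lower without ASC replicate 1. An unadjusted p under 0.05 and DESeq2 gave 0 higher in both of the comparisons with 0, and edgeR gave 0 for ASCs against FAPs, 1 for injured FAPs against ASCs. Of the 16 feedback and target genes of these receptors, 4 were higher and 9 lower in ASCs than in FAPs (23.4% and 23.8% of all genes), 2 higher and 4 lower in injured FAPs than in FAPs (24.9% and 27.7% of all genes) and 7 higher and 3 lower in injured FAPs than in ASCs (25.0% and 25.8% of all genes). The alternatives gave 3 to 4 higher and 8 to 9 lower, 2 higher and 4 to 5 lower, and 6 to 8 higher and 2 to 3 lower, in the same order. Errfi1, a feedback inhibitor of EGFR, had normalized values of 85054, 64930.1 and 79161 in ASCs, 13758 and 10429 in FAPs and 14954, 13251 and 13452 in injured FAPs, highest in ASCs as Egfr was. Etv4 had 15.8, 14.7 and 18.8 in ASCs, 384 and 546 in FAPs and 486, 351 and 363 in injured FAPs. Etv4 (-4.72), Etv1 (-3.39) and Dusp6 (-2.52) were lower in ASCs than in FAPs (limma adjusted p = 1.36e-07, 5.46e-07 and 3.63e-06). The 4 called higher there were Errfi1 (2.66), Dusp5 (1.03), Spry2 (0.88) and Spred1 (0.72), of which Spry2 (0.44) and Spred1 (0.37) lost the call with quantile normalization and Spred1 (0.55) with a common 75th percentile. Dusp5 and Spry2 were picked with their values in view. The largest calls of the list in injured FAPs against FAPs were Etv1 (-2.25), Spry1 (-1.59), Il17rd (-1.39) and Spred1 (1.33).

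Immediate early genes, which respond to growth factors and also to tissue digestion, were abundant in every library. The list also holds the heat shock genes Hspa1a and Hspa1b. The 14 genes summed to between 699008 and 980363 in ASCs and FAPs, led by Fosb in ASCs and Egr1 in FAPs, and to between 289630 and 331987 in injured FAPs, led by Zfp36. In injured FAPs against FAPs 11 were lower (27.7% of all genes) and 1, Ier3, higher (24.9% of all genes, median -1.31), or 8 and 1 with quantile normalization. The largest falls were those of the heat shock genes Hspa1a (-2.90) and Hspa1b (-2.86), followed by Egr1 (-2.47) and Ier2 (-1.94). Ereg, Hbegf and Nrg1 were higher there, Nrg1 having passed the filter only through injured FAPs. The share of the digestion in the ligand values was not tested.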

How the data were processed

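RNA was sequenced from ASCs (3 libraries), FAPs (2), injured FAPs (3) and CD31+CD45+ cells (1). Per the submitters' notes, the authors used FastQC, HISAT2 with the mm10 genome, Subread featureCounts and DESeq2, and the deposited signal is read counts per gene divided by a size factor for each library. Dividing each library's values by its smallest step gave whole reads for 100% of values, within 1e-06. Totals of recovered reads on genes ran from 13091077 to 27481573, and 3 reads were worth 2.29 to 4.71. The table holds 26214 genes, 2 of its columns are empty, and 6684 genes are at 0 in all libraries.

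In R 4.3.3, limma 3.58.1 fitted log2(value + 1) of 8 libraries in 3 groups with a mean-variance trend. Tested were 13601 genes with a mean of at least 10, adjusted by Benjamini and Hochberg. Genes were called at a limma adjusted p below 0.05 if they also changed by more than 0.58 on the log2 scale. It made 6416 calls in ASCs against FAPs, 7153 in injured FAPs against FAPs and 6909 in injured FAPs against ASCs. On the recovered reads, edgeR 4.0.16 made 6450.0, 7303 and 7000.0, and DESeq2 1.42.0 made 6412, 7227 and 6865. The limma fit was tested on simulated data, and no value from that test is used here. Levels per kilobase used GENCODE M21 exons, and promoters RefSeq GRCm38.p6.

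Named are all 8 growth factors, every tested receptor and other ligand, and for each tested growth factor the 2 genes with the closest profile (mean at least 100). Each further list allowed up to 4 called genes with the largest change per comparison (mean at least 100). Not all genes allowed in this way are named, and some are named for only part of the comparisons. Dusp5, Spry2, Hspg2, Jun, Zfp36, Nr4a1 and antisense Nudt6 were named outside this rule. Lists covered other ligands, receptors, release, heparan sulfate, adaptors, feedback, immediate early genes and cell type markers. The growth factors and lists were chosen with earlier results of these data known. Alternatives were pseudocounts of 0.5 and 8, no filter or a mean of 50, quantile normalization, a common 75th percentile, an unadjusted p, only the 2 groups compared, a replicate block, edgeR, DESeq2, each library left out, and the longest transcript as the length.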

Additional observations from a re-analysis of the deposited data

Results flagged for a closer look

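Hbegf had a normalized value of 1508 in the single CD31+CD45+ library, which is part of no comparison, above the highest value in FAPs (592). That library came from quadriceps after glycerol, whereas FAPs came from mice injected with NaCl. Injured FAPs, also after glycerol, had 1468, 1166 and 1285, and the highest value in ASCs was 1101. There is no replicate of the CD31+CD45+ library, and these differences were not tested.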

How the results depend on the processing

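For the 7 tested growth factors, 390 results were recomputed under the alternatives: 357 kept their side of the threshold, 29 lost a call, 4 gained one and no called value changed sign. Areg, below the filter in the main fit, is not in these counts, and neither are its calls without ASC replicate 2. Among the 357, Fgf7 in injured FAPs against FAPs, not called, went from 0.13 to -0.0061 without FAP replicate 2. For the other listed genes the same counts were 5027, 92, 75 and 5 of 5199. In injured FAPs against ASCs the count of growth factors called lower, 3, was 1 with a common 75th percentile and 1 with edgeR, and ran from 1 to 5 when a library was left out, the 5 including Areg. The count called higher, 3, ran from 1 to 3. The causes were not tested. Leaving out a FAP library leaves 1, which is assumed to vary like the other groups.

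With quantile normalization 5 genes reversed: Gpc3 (-0.036, ASCs against FAPs), then Hspg2 (0.70), Jun (0.47), Zfp36 (0.66) and Nr4a1 (0.93), these 4 for injured FAPs against ASCs. The cause was not tested. Of 24 levels per kilobase, 16 moved by at least 1 SD between libraries with the longest transcript as the length, and 8 by less or not at all.

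Replicate numbers did not pair libraries. With a replicate block, the Hbegf call in ASCs against FAPs was lost (0.56, limma adjusted p = 0.0394, against 0.0350 without it), as were those of Fgf12 (-1.34) and Fgf13 (-1.44) in injured FAPs against FAPs, where the other ligands called lower went from 9 to 7. All calls numbered 6287, 7046 and 6861. Nrg1 and Areg rest on few reads, so a filter at a mean of 50 gave no value for Nrg1.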
